A study of Prunus persica with 84 samples.

Results

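Floral buds of peach (Prunus persica) were compared between the genotypes KV021779, written LP, and John Boy, written JB, after 4 d at 22 °C. The comparison rests on 6 of the 84 libraries of the series, 3 of LP and 3 of JB, chosen by what the labels give as genotype, treatment and time. The series profiles messenger RNA in buds of 2 peach genotypes with different flowering time. Cut shoots bearing the buds stood with their base in water at 4 °C for 1000 h and were then moved to 22 °C, where LP began to bloom at 28 d and JB at 20 d. Both genotypes were sampled at 13 shared times, 7 in chilling from 0 to 1000 h and 6 at 22 °C (1, 4, 8, 12, 16 and 20 d), and LP also at 24 and 28 d. The 4 d groups of both genotypes had therefore passed through the full chilling before the warmth, on shoots without roots. All libraries were made from whole floral buds with a stranded messenger RNA kit. In such bulk samples, fewer cells of a type and less RNA per cell cannot be told apart.

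Flower buds of peach pass the winter in dormancy and resume growth in warmth once they have received enough cold. The DORMANCY-ASSOCIATED MADS-BOX genes, DAM1 to DAM6, are neighbouring genes of MADS-box transcription factors known as brakes on bud growth, and several of them decline as chilling is fulfilled. The euAP2 genes, to which the series title points, encode transcription factors of the APETALA2 family that act in flowering time and flower organ identity and are targets of the microRNA miR172.

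The 3 LP libraries held 11894298 to 14496527 counts and the 3 JB libraries held 10366784 to 13469624. Replicates correlated across genes at r = 0.993 to 0.994 in LP and at r = 0.992 among the JB pairs on the log2 scale. No pair agreed within counting noise, the chi-square per degree of freedom being 1.83 to 3.16 in LP and 2.52 to 3.63 in JB. Whether the replicates are separate trees is not said in the labels, so each p-value reflects only how far replicate libraries spread, and that spread may be technical. In the main fit the spread was estimated over all 84 libraries of the series, not from the 4 d libraries alone. The labels give no date, batch or hour of sampling. Neither 4 d group holds a library that stands apart, but replicate 3 of JB at 12 d and replicate 3 of LP at 28 d do. Several results at 12 d and 28 d that rest on them are given with and without them, and the others, with the figures, include them. The deposited table gives gene identifiers without names, apart from the DAM genes, so the labelled tissue could not be checked by marker genes and most genes are described here by identifier only.

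After 4 d of warmth the buds of the genotypes differed in a large share of their transcripts. Of 21168 genes tested, 10983 (51.9%) differed between LP and JB at an adjusted p under 0.05 in edgeR's quasi-likelihood test with Benjamini-Hochberg adjustment. The calls were split almost evenly, with 5455 genes higher in LP (25.8%) and 5528 lower (26.1%). At least 2-fold differences were fewer, with 1608 genes higher in LP (7.60%) and 1968 lower (9.30%). At 4-fold, 456 genes were higher and 976 lower, and at 8-fold 223 were higher and 504 lower. The lower genes were thus the more numerous at each fold, while the median log2 difference over all tested genes was 0. The libraries of the genotypes did not overlap in CPM (counts scaled by library size) for 12732 genes (60.1%), 6392 of them higher in LP and 6340 lower.

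**Figure D1:**
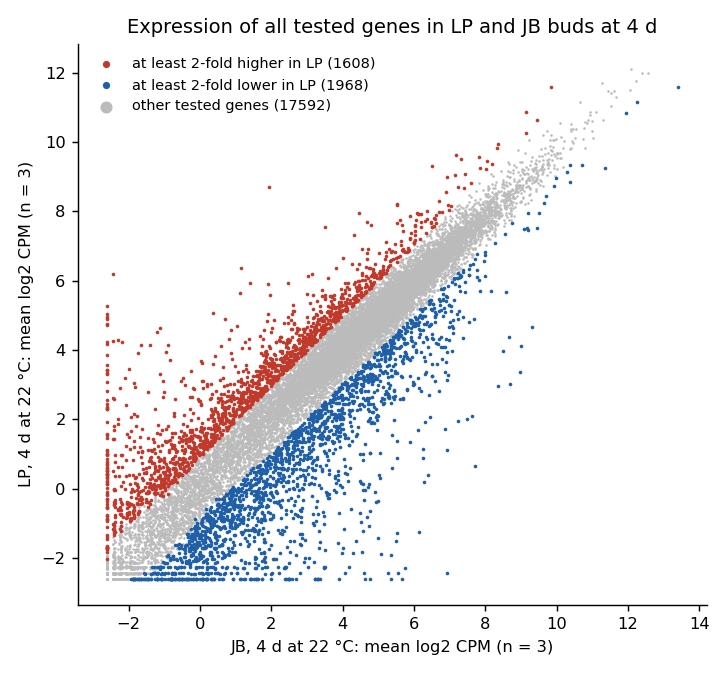
Mean log2 CPM at 4 d of each tested gene in LP (vertical axis) and in JB (horizontal axis), 3 libraries each. Red points are the 1608 genes called and at least 2-fold higher in LP, blue points the 1968 called and at least 2-fold lower, grey points the other genes. The column of points at the left edge and the row at the bottom are genes with no count in 1 genotype.

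The differences lay mostly among genes with low counts. Of the 5284 genes with 1 to 10 CPM, 738 were 2-fold higher in LP and 883 lower, or 14.0% and 16.7%. Of the 2120 genes above 100 CPM, 69 were 2-fold higher and 65 lower, or 3.25% and 3.07%. Among the 100 genes with the highest mean CPM in either genotype, 6 were 2-fold higher in LP and 11 were lower. These shares were near the 7.60% and 9.30% of all tested genes. Ranking by the higher genotype mean favours genes that are high in only 1 genotype. The 2-fold higher genes took 5.65 to 5.82% of all counts in the LP libraries, against 1.83 to 1.87% in the JB libraries. The 2-fold lower genes took 2.57 to 2.69% of the counts in LP, against 7.78 to 8.14% in JB. These shares of counts follow from how the genes were chosen and are given as a description of how much of the bud's messenger RNA the differences involve.

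A small set of genes was seen in 1 genotype and not in the other. Among genes with at least 5 CPM in 1 genotype at 4 d, 18 had no count in the 3 JB libraries and 19 had none in the 3 LP libraries. Means in the genotype with reads ran from 5.28 to 38.6 CPM among the genes missing in JB, and from 5.15 to 51.0 CPM among those missing in LP. Of the 18, 8 had at most 3 counts over all 39 JB libraries of the series, and of the 19, 7 had at most 3 counts over all 45 LP libraries. The difference was 2-fold or more at all 13 shared times for 16 of the 18 and 13 of the 19.

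PRUPE_2G059200 had 31.6, 33.0 and 33.7 CPM in the LP libraries, against 0 in each JB library. Set against a floor of 3 counts over the JB group, it was at least 386-fold higher in LP. PRUPE_3G050500 likewise had 29.5, 31.3 and 28.9 CPM in LP and 0 in JB, at least 352-fold higher in LP. Both were called and at least 2-fold higher in LP at each of the 13 shared times. In the other direction, PRUPE_4G020400 had no count in LP and 39.9, 37.8 and 43.9 CPM in JB, at least 559-fold lower in LP. PRUPE_2G076700 had no count in LP and 29.1, 23.7 and 29.0 CPM in JB, at least 377-fold lower in LP. Its level in JB also moved with time, being 4.30 ± 1.3 CPM at 1000 h, 27.3 ± 3.1 CPM at 4 d and 3.39 ± 0.50 CPM at 20 d (SD, n = 3 each). These floors cover counting error only.

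Other large differences at 4 d were not both called and 2-fold at every shared time. PRUPE_4G092900 had 11.6, 11.7 and 11.7 CPM in LP at 4 d and no count in any JB library of any time, at least 137-fold higher in LP. In LP it stood at 0.172 ± 0.16 CPM at 1000 h and at 12.9 ± 0.80 CPM at 1 d. At 100 h and 400 h the LP libraries held only 3 and 2 counts of it, and the difference was not called. PRUPE_2G005100 had 20.4, 17.1 and 19.9 CPM in LP, against 1 count in total in JB. The ratio of LP over JB was 672, with an exact 95% binomial interval of 120 to 26557 for counting error. PRUPE_5G106800 had no count in LP, against 25.2, 24.4 and 24.0 CPM in JB, at least 338-fold lower in LP. PRUPE_4G262200 had none in LP, against 9.71, 10.4 and 8.70 CPM in JB, at least 132-fold lower in LP. In JB it was at 4.36 ± 0.48 CPM at 1 d, 9.59 ± 0.84 CPM at 4 d and 0.334 ± 0.17 CPM at 8 d, so that its JB level at 4 d was the highest of the first 3 warm times.

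The DAM genes stood lower in LP than in JB at 4 d where they differed. Of the 6, 3 were called lower in LP (DAM1, DAM4 and DAM6) and none was called higher, read against 26.1% of all genes called lower. Their median log2 difference was -0.76, against 0 over all tested genes. The table counts each DAM gene separately, and how reads shared by these similar neighbours were counted is not given in the sources used here.

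PRUPE_DAM4 had 17.8, 16.1 and 17.6 CPM in the LP libraries, against 62.8, 63.1 and 61.6 CPM in the JB libraries. Every LP library lay far below every JB library, with a log2 difference of -1.87 ± 0.11 (SE) and an adjusted p of 1.9e-24. PRUPE_DAM6 had 4.69, 5.70 and 6.18 CPM in LP, against 14.0, 9.08 and 15.7 CPM in JB. The groups did not overlap, and the log2 difference was -1.21 ± 0.32 with an adjusted p of 0.00102. PRUPE_DAM1 had 2.57, 2.88 and 2.86 CPM in LP, against 3.90, 3.56 and 6.38 CPM in JB. JB replicate 3 was the highest by far, and the log2 difference of -0.73 ± 0.27 (adjusted p = 0.0204) was -0.42 with an adjusted p of 0.267 without it. The call was also lost without LP replicate 1, at an adjusted p of 0.0559, and without all libraries numbered 3, at 0.273.

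The 3 other DAM genes overlapped between the genotypes. PRUPE_DAM5 had 1.74, 1.83 and 1.93 CPM in LP, against 4.09, 1.89 and 3.79 CPM in JB. Its log2 difference of -0.79 ± 0.48 did not pass edgeR's test (adjusted p = 0.168), while DESeq2 gave an adjusted p of 0.0286 and an edgeR fit of the 4 d libraries alone gave 0.00931. PRUPE_DAM3 had 1.97, 1.97 and 3.17 CPM in LP, against 3.24, 1.82 and 3.19 CPM in JB (log2 difference -0.20 ± 0.38, adjusted p = 0.697). PRUPE_DAM2 was near the limit of counting, with 4, 6 and 6 counts in LP, against 3, 8 and 10 counts in JB (log2 difference -0.60 ± 0.61, adjusted p = 0.425). A p that misses the threshold does not show equal levels.

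PRUPE_6G242400 is taken from knowledge of the study as the euAP2 gene of the title, since the table gives only the identifier. It had 30.3, 34.2 and 31.5 CPM in the LP libraries, against 31.8, 32.0 and 33.3 CPM in the JB libraries. The groups overlapped, and the log2 difference was -0.02 ± 0.10 with an adjusted p of 0.935. After 1000 h of chilling the same gene had stood at 57.0 ± 2.7 CPM in LP and 36.5 ± 3.8 CPM in JB (SD, n = 3 each). At 1000 h it was higher in LP by 0.64 ± 0.10 on the log2 scale (adjusted p = 1.16e-07), and the change of this difference to 4 d was -0.66 ± 0.14 (adjusted p = 6.67e-05).

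**Figure D2:**
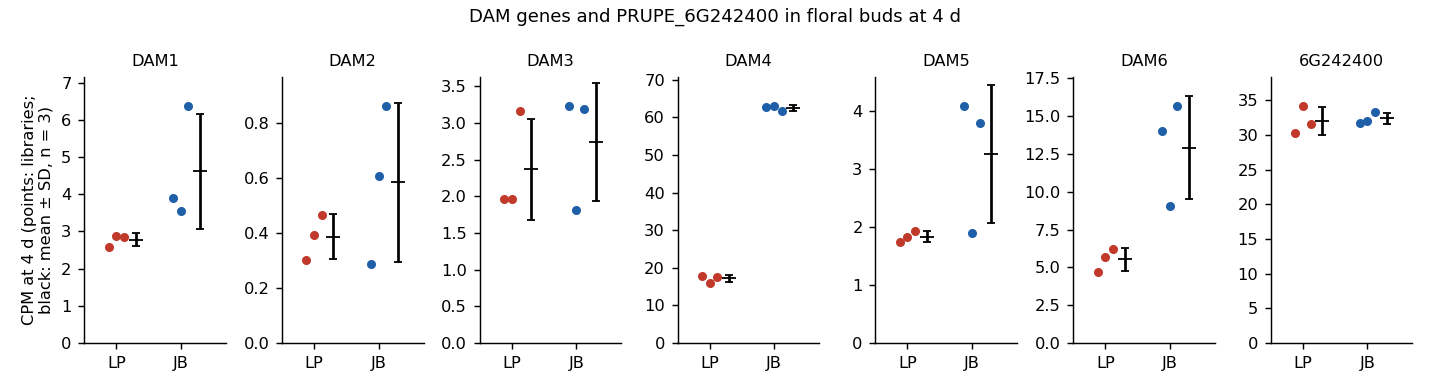
CPM at 4 d of DAM1 to DAM6 and PRUPE_6G242400 (vertical axes, scaled per gene from 0), with LP in red left of JB in blue. Points are the 3 libraries of each genotype and the black bars are mean ± SD. DAM4 stands at 16.1 to 17.8 CPM in LP, against 61.6 to 63.1 CPM in JB, while PRUPE_6G242400 lies near 32 CPM in both.

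The first question is how the contrast at 4 d compares with that at the end of chilling, 1000 h. The genotype difference had changed for 10510 genes (49.7%) by the interaction test in the same edgeR fit. At least 2-fold, it was more positive in LP at 4 d for 2253 genes (10.6%) and more negative for 1965 (9.28%). The 2-fold lists themselves overlapped in part. At 1000 h, 880 of all tested genes were 2-fold higher in LP (4.16%) and 1400 were 2-fold lower (6.61%). Of the 1608 genes higher in LP at 4 d, 334 were 2-fold higher at 1000 h and 229 were 2-fold lower. Of the 1968 genes lower in LP at 4 d, 523 were 2-fold lower at 1000 h and 121 were 2-fold higher. The shared genes made up 38.0% of all genes 2-fold higher in LP at 1000 h and 37.4% of all those 2-fold lower.

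Of the DAM genes, 4 had a more negative genotype difference at 4 d than at 1000 h, against 26.4% of all genes, and none a more positive one. The change was -2.49 ± 0.14 (adjusted p = 3.33e-24) for DAM4, -2.13 ± 0.40 (5.26e-06) for DAM6, -2.14 ± 0.56 (0.000877) for DAM5 and -1.46 ± 0.57 (0.0269) for DAM1. For DAM4 the order of the genotypes turned. At 1000 h it stood at 186 ± 10.5 CPM in LP and 121 ± 19.3 CPM in JB, and at 4 d at 17.2 ± 0.96 CPM in LP and 62.5 ± 0.79 CPM in JB (SD, n = 3 each). DAM6 had 55.2 ± 14.9 CPM in LP and 29.2 ± 11.4 CPM in JB at 1000 h, again the reverse of its order at 4 d. At 1000 h the log2 difference was 0.62 ± 0.09 for DAM4 (adjusted p = 5.92e-08), 0.92 ± 0.23 for DAM6 (0.000714) and 1.35 ± 0.27 for DAM5 (2.96e-05), each higher in LP. The DAM1 call was lost without JB 4 d replicate 3 (-1.16, adjusted p = 0.0918), without the replicates numbered 1 (-1.30, adjusted p = 0.0831) and without those numbered 3 (-0.42, adjusted p = 0.708). The DAM5 call was lost without the replicates numbered 1 (adjusted p = 0.0714).

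The genes named for this contrast had crossed over between the genotypes or appeared in 1 of them. PRUPE_8G215300 had 6.89, 8.91 and 9.58 CPM in LP at 4 d, against 0.190, 0.605 and 0.258 CPM in JB. At 1000 h it had 0.152 ± 0.052 CPM in LP and 1.95 ± 0.72 CPM in JB, so the order of the genotypes turned, with an interaction of 8.09 ± 0.58 on the log2 scale (adjusted p = 1.73e-19). PRUPE_8G153500 had 15.9, 14.9 and 15.1 CPM in LP at 4 d, against 7.42, 6.73 and 6.81 CPM in JB. Its interaction with 1000 h was 6.15 ± 0.31 (adjusted p = 8.05e-27), since at 1000 h it had 0.783 ± 0.36 CPM in LP and 25.9 ± 3.7 CPM in JB.

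PRUPE_8G200900 had 0.303, 0.328 and 0.155 CPM in LP at 4 d, against 71.6, 71.2 and 67.6 CPM in JB. The log2 difference was -7.99 ± 0.40 (adjusted p = 5.71e-26). At 1 d it had 0.0514 ± 0.089 CPM in LP and 16.4 ± 0.82 CPM in JB, whose libraries of 1000 h held no count of it. LP buds stood at 10.1 ± 0.90 CPM at 8 d and 42.9 ± 0.82 CPM at 16 d. PRUPE_5G106800, described above, likewise had 0.0502 ± 0.043 CPM in LP and 7.70 ± 0.99 CPM in JB at 1 d, and 5.52 ± 0.74 CPM in LP and 36.6 ± 0.94 CPM in JB at 16 d.

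The next question is what changed within the first days of warmth, from 1 d to 4 d. Within LP, 853 genes rose at least 2-fold and 287 fell over these 3 days. Within JB, 481 rose and 947 fell. The genotype difference changed for 4929 genes (23.3%), 2896 more positive in LP (13.7%) and 2033 more negative (9.60%). At least 2-fold, 1309 genes became more positive in LP (6.18%) and 269 more negative (1.27%). A fit without the replicates numbered 2 made 2675 calls, and one without those numbered 1 made 3094. The 4 d libraries enter this contrast, those with 1000 h, 8 d, 12 d and 16 d, and the main comparison alike, so these results are not independent of each other.

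The genes 2-fold higher in LP at 4 d were for the most part not called and 2-fold higher at 1 d, while most of the lower genes were already called and 2-fold lower. A gene that misses this rule at 1 d was not shown to be level between the genotypes. Of the 1608 higher genes, 476 (29.6%) were 2-fold higher at 1 d as well. Of the 1968 lower genes, 1392 (70.7%) were 2-fold lower at 1 d. Among all tested genes, 661 were 2-fold higher at 1 d (3.12%) and 2175 lower (10.3%). The overlap made up 72.0% of all genes 2-fold higher at 1 d and 64.0% of all genes 2-fold lower at 1 d.

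A set of 642 genes was 2-fold higher in LP at 4 d, with a genotype difference at least 2-fold more positive in LP than at 1 d. Since the set was picked on these values, its levels are a description. The set medians were close at 1 d, at a log2 CPM of 2.90 in LP and 2.88 in JB. They were apart at 4 d, at 3.11 in LP and 1.60 in JB. Single members could differ, such as PRUPE_8G215300, already higher in LP at 1 d by 2.08 ± 0.17 on the log2 scale. From 1 d to 4 d the median change was 0.15 in LP and -1.31 in JB. Within LP, 210 of the 642 rose and 111 fell, and within JB 2 rose and 539 fell, each at an adjusted p under 0.05. Over all 21168 tested genes, counted only with a 2-fold minimum as well, 853 rose and 287 fell in LP. In JB 481 rose and 947 fell by that stricter rule. In the set medians the gap opened mainly through lower levels in JB.

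The level of these 642 genes went up and down with sampled time. In LP the median log2 CPM was 1.83 at 1000 h, 2.90 at 1 d, 3.11 at 4 d, 2.38 at 8 d, 2.74 at 12 d, 2.07 at 16 d and 2.60 at 20 d. In JB it was 2.33, 2.88, 1.60, 1.93, 1.03, 3.09 and 3.13 at the same times. The genes were 2-fold higher in LP at 12 d for 495 of the 642 and at 8 d for 171, and 2-fold lower in LP at 16 d for 304. Over all tested genes the matching shares were 10.9% higher at 12 d, 4.74% higher at 8 d and 16.4% lower at 16 d. With replicate 3 of JB at 12 d and of LP at 28 d left out, the JB median at 12 d was 0.81, and 520 of the 642 were 2-fold higher in LP at 12 d, against 12.2% of all genes. The part of sampling conditions in this alternation was not tested, as the labels record none beside genotype, treatment and time.

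A smaller set of 183 genes was 2-fold lower in LP at 4 d, with a genotype difference at least 2-fold more negative than at 1 d. Members such as PRUPE_1G114500 were already lower in LP at 1 d. The set had the reverse course. From 1 d to 4 d the median change was -0.64 in LP and 0.90 in JB, so that both genotypes contributed. Within LP, 85 of the 183 fell and 6 rose, and within JB 6 fell and 124 rose. The counts over all tested genes are those given above, with a 2-fold minimum as well. At 12 d, 118 of the 183 were 2-fold lower in LP, and at 20 d 88 were 2-fold higher. Over all tested genes 11.6% were 2-fold lower at 12 d and 16.1% 2-fold higher at 20 d. Leaving out the same libraries, 122 of the 183 were 2-fold lower in LP at 12 d, against 12.1% of all genes.

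**Figure D3:**
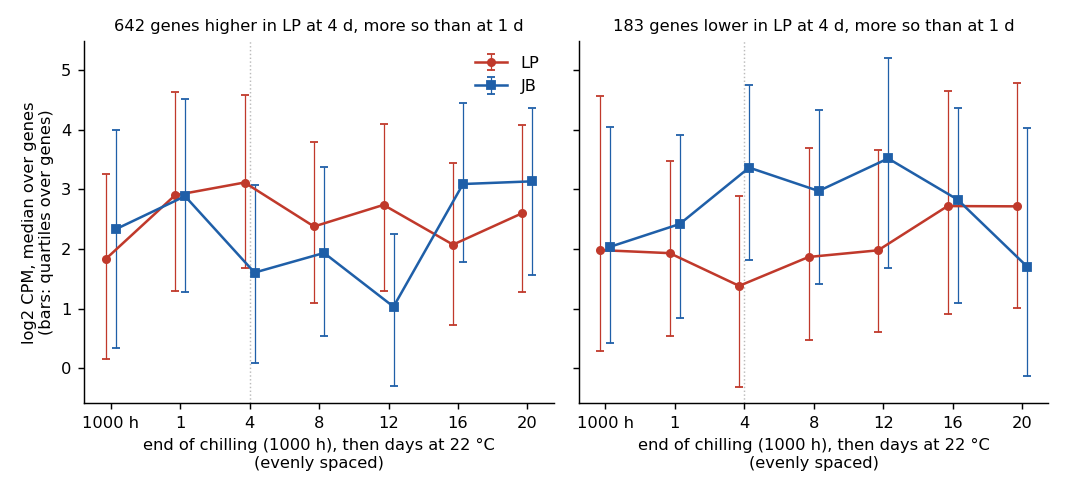
Median log2 CPM over genes (vertical axis; bars are quartiles over genes) at 1000 h of chilling and from 1 to 20 d at 22 °C (horizontal axis, evenly spaced), LP in red circles and JB in blue squares. Left, the 642 genes whose difference became more positive in LP between 1 d and 4 d, where JB dips to 1.60 at 4 d and 1.03 at 12 d. Right, the 183 genes whose difference became more negative, where LP reaches 1.38 at 4 d.

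DAM4 already stood lower in LP at 1 d, at 43.2 ± 0.33 CPM against 70.7 ± 1.9 CPM in JB (SD, n = 3). The log2 difference at 1 d was -0.71 ± 0.10 (adjusted p = 8.14e-09). DAM4 then moved further in this direction by 4 d, with an interaction of -1.16 ± 0.15 (adjusted p = 2.22e-09). Its level fell by 1.33 ± 0.11 within LP (adjusted p = 1.35e-16), and the change in JB was -0.18 ± 0.10 (adjusted p = 0.159). At 8 d and 12 d DAM4 was still lower in LP, with log2 differences of -1.86 ± 0.13 and -2.07 ± 0.14. By the interaction test neither was called different from 4 d (-0.0073 ± 0.19 and 0.20 ± 0.18, the latter at an adjusted p of 0.46). DAM6 fell within both genotypes, by -1.51 ± 0.30 in LP (adjusted p = 5.87e-05) and -0.68 ± 0.27 in JB (adjusted p = 0.0428), and the difference between these changes did not pass the test (-0.82 ± 0.41, adjusted p = 0.147). A fit of the compared groups alone did call it, at -0.81 with an adjusted p of 0.00312. DAM2 was called more positive in LP (2.62 ± 1.00, adjusted p = 0.0477), but on few counts, and 10 of 15 alternative fits lost that call. DAM1 rose in both genotypes from 1 d to 4 d, by 1.35 ± 0.33 in LP and 1.42 ± 0.30 in JB.

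PRUPE_8G025400 was among the genes that changed most in favour of LP between 1 d and 4 d. It had 87.8, 83.4 and 75.0 CPM in LP at 4 d, against 1.81, 2.12 and 2.24 CPM in JB. The log2 difference at 4 d was 5.31 ± 0.21 (adjusted p = 9.56e-34). The genotypes had been in the other order at 1 d, with 12.1 ± 1.0 CPM in LP and 32.5 ± 2.2 CPM in JB, and the interaction was 6.73 ± 0.27 (adjusted p = 2.54e-32). In LP the gene was at 42.0 ± 2.4 CPM at 20 d and 437 ± 81.8 CPM at 28 d, when blooming began. Without replicate 3, the LP libraries of 28 d held 380 and 399 CPM. In JB it was at 164 ± 8.3 CPM at 16 d and 1357 ± 56.8 CPM at 20 d, when JB began to bloom.

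PRUPE_3G072000 changed the other way. It had 1.67, 2.95 and 2.70 CPM in LP at 4 d, against 59.3, 62.2 and 55.0 CPM in JB, a log2 difference of -4.57 ± 0.30 (adjusted p = 5.72e-22). At 1 d the genotypes were close, at 10.5 ± 0.42 CPM in LP and 13.9 ± 0.77 CPM in JB, and the interaction was -4.18 ± 0.41 (adjusted p = 7.52e-13). PRUPE_1G114500 had no count in LP at 4 d, against 5.90, 6.73 and 3.96 CPM in JB, at least 76.4-fold lower in LP. It was already lower in LP at 1 d, with 0.117 ± 0.16 CPM in LP and 4.05 ± 0.57 CPM in JB (log2 difference -5.05 ± 0.46, adjusted p = 4.56e-15). The interaction with 1 d was called at an adjusted p of 0.0433, and 10 of 16 alternative fits lost that call. PRUPE_2G141000, named for a more positive difference at 4 d than at 1 d, was lower in LP at both times. It had 0.833, 0.786 and 1.00 CPM in LP at 4 d, against 17.1, 15.0 and 15.3 CPM in JB (log2 difference -4.17 ± 0.40, adjusted p = 3.17e-14), and no count in LP at 1 d, against 13.4 ± 2.6 CPM in JB.

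**Figure D4:**
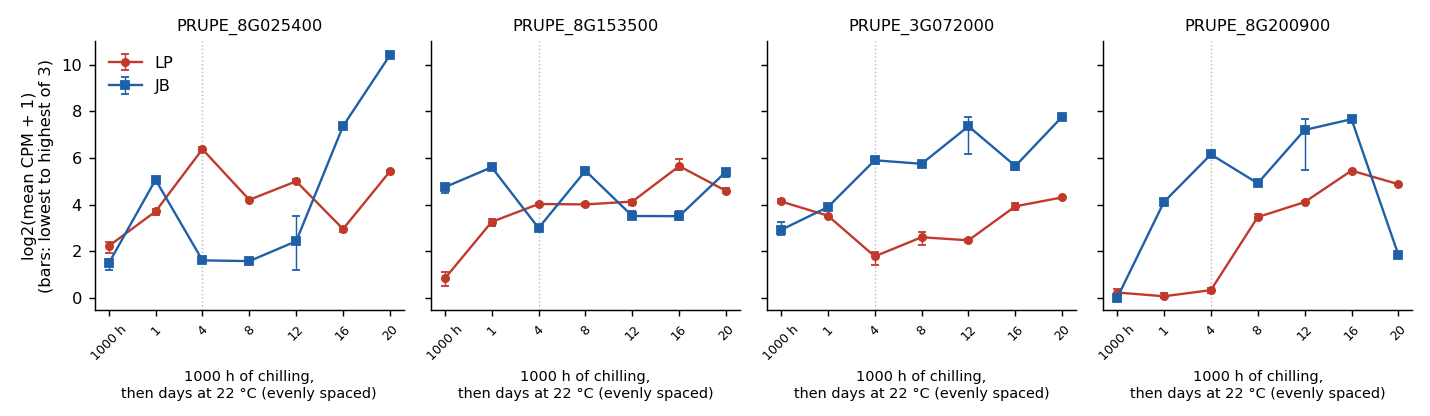
log2(mean CPM + 1) of 4 genes (vertical axis) at 1000 h of chilling and 1 to 20 d at 22 °C (horizontal axis, evenly spaced), LP in red circles and JB in blue squares, with bars from the lowest to the highest of 3 libraries. PRUPE_8G025400 and PRUPE_8G153500 are higher in LP at 4 d, and PRUPE_3G072000 and PRUPE_8G200900 are lower. The wide bars of JB at 12 d come with a replicate that stands apart.

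At 8 d many of the 4 d differences were not called and 2-fold, and at 12 d most were. Of the 1608 genes higher in LP at 4 d, 601 (37.4%) were 2-fold higher at 8 d and 1244 (77.4%) at 12 d. Of the 1968 lower genes, 967 (49.1%) were 2-fold lower at 8 d and 1370 (69.6%) at 12 d. With these 2 libraries that stand apart left out (replicate 3 of JB at 12 d and of LP at 28 d), the shares were 37.7% and 78.3% of the higher genes and 48.7% and 70.2% of the lower genes. The shared genes made up 59.9% of the higher and 58.5% of the lower genes of 8 d, and 53.9% and 55.6% of those of 12 d. At 12 d more genes were apart in all, with 2310 higher (10.9%) and 2465 lower in LP (11.6%), than at 8 d, with 1003 higher (4.74%) and 1654 lower (7.81%). Without the libraries that stand apart, 2619 genes were higher (12.2%) and 2592 lower (12.1%) at 12 d, of 21405 tested.

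The genotype difference was tested to differ between 4 d and 8 d for 5093 genes (24.1%), at least 2-fold more positive in LP at 4 d for 922 (4.36%) and more negative for 808 (3.82%). A fit without the replicates numbered 2 made 2744 calls against 8 d. Between 4 d and 12 d, a contrast added after the data were seen, 4857 genes (22.9%) were called, 372 of them at least 2-fold more positive at 4 d (1.76%) and 838 more negative (3.96%). Without the 2 libraries that stand apart the contrast with 12 d gave 5983 calls, 509 at least 2-fold more positive and 1094 more negative. A fit without the replicates numbered 2 made 1939 calls and one without those numbered 1 made 2818. In place of 372, the count was 205 without the replicates numbered 2 and 230 in a fit of the compared groups alone.

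Later in the warmth part of the differences turned round, at times when more genes were apart in all. Over all tested genes, 1782 were 2-fold higher in LP at 16 d (8.42%) and 3477 lower (16.4%), and at 20 d 3398 were higher (16.1%) and 3769 lower (17.8%). At 16 d, 326 of the 1608 genes were still 2-fold higher in LP, while 505 (31.4%) were 2-fold lower. Of the 1968, 553 were 2-fold lower at 16 d and 506 (25.7%) were 2-fold higher. At 20 d, when JB began to bloom, 517 of the 1608 were 2-fold higher and 401 (24.9%) lower in LP, and of the 1968 553 were lower and 757 (38.5%) higher. The genes apart the same way made up 18.3% of the higher and 15.9% of the lower genes of 16 d, and 15.2% and 14.7% of those of 20 d. The genotype difference differed between 4 d and 16 d for 12612 genes (59.6%), another contrast added after the data were seen. At least 2-fold, it was more positive in LP at 4 d for 3636 genes (17.2%) and more negative for 2879 (13.6%).

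A smaller group kept its difference throughout. Of the 1608 higher genes, 156 were 2-fold higher in LP at all 13 shared times, and of the 1968 lower genes 150 were 2-fold lower at all 13. At 4 d alone, 181 genes were 2-fold higher and 95 lower. Among those kept at all 13 times was PRUPE_8G074400, with 75.6, 73.1 and 71.0 CPM in LP at 4 d, against 1 count in total in JB. Its ratio of LP over JB was 2587, with an exact 95% binomial interval of 464 to 102219 for counting error. In JB it stood at 0.796 ± 0.56 CPM at 1 d and 1.28 ± 0.28 CPM at 8 d, so the low point of JB was at 4 d among the warm times.

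**Figure D5:**
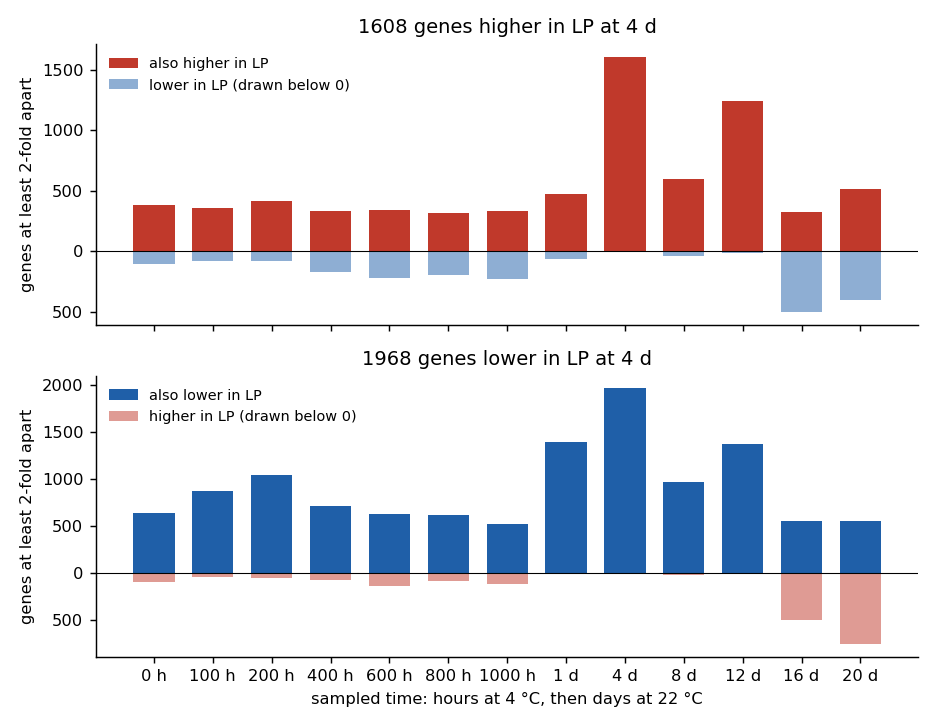
Number of genes (vertical axes) 2-fold higher in LP at 4 d (upper panel, 1608) and 2-fold lower (lower panel, 1968) that were at least 2-fold apart at each shared time (horizontal axis). Bars above 0 count genes apart the same way as at 4 d, and bars below 0 those apart the opposite way. Of the higher genes, 1244 were apart the same way at 12 d, and 505 the opposite way at 16 d.

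Set against 8 d, both genes named for a more negative difference at 4 d had more counts in JB at 4 d than at 8 d. PRUPE_4G261900 had 0, 0.459 and 0.541 CPM in LP at 4 d, against 43.3, 49.7 and 43.8 CPM in JB (log2 difference -7.03 ± 0.41, adjusted p = 5.72e-21). At 8 d the order was turned, with 5.10 ± 0.37 CPM in LP and 1.16 ± 0.31 CPM in JB, and the interaction was -9.17 ± 0.63 (adjusted p = 9.24e-17). LP reached 75.6 ± 4.2 CPM of it at 16 d. PRUPE_1G114500 stood at 1.31 ± 0.26 CPM in LP and 1.37 ± 0.51 CPM in JB at 8 d, having been absent from the LP counts at 4 d. PRUPE_2G005100 remained in LP at 8 d with 14.8 ± 1.7 CPM, against 0.472 ± 0.074 CPM in JB. PRUPE_6G242400 did not pass the test between 4 d and 8 d (-0.30 ± 0.15, adjusted p = 0.134), whereas its genotype difference at 4 d was more positive in LP than at 12 d (0.56 ± 0.15, adjusted p = 0.00325, or 0.79 ± 0.13, adjusted p = 2.15e-06, without the libraries that stand apart) and more negative than at 16 d (-0.53 ± 0.15, adjusted p = 0.00233).

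Whole profiles placed the genotypes at different distances from each other's time points. The distance used is the mean absolute difference of log2 CPM over all tested genes between a library and a group mean. LP 4 d libraries lay 0.162 to 0.185 from the mean of the other LP libraries of 4 d, and 0.592 to 0.605 from JB at 4 d. They lay closer to JB at 1 d, at 0.478 to 0.493, so that the distance to JB at 4 d was 1.24 ± 0.0073 times that to JB at 1 d (SD, n = 3). JB 4 d libraries lay 0.190 to 0.200 from the other JB libraries of 4 d and 0.593 to 0.613 from LP at 4 d. They lay closer to LP at 8 d, at 0.483 to 0.507, to LP at 12 d, at 0.527 to 0.538, and to LP at 16 d, at 0.489 to 0.504. Their distance to LP at 4 d was 1.22 ± 0.0091 times that to LP at 8 d (SD, n = 3). The SD of each ratio is over libraries set against the same group means and leaves out the spread of those groups.

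The genes that differed were spread over all 8 chromosomes, read from the chromosome number in the identifiers. The share of tested genes at least 2-fold apart was 20.1% on chromosome 2, 18.6% on chromosome 8 and 18.3% on chromosome 4, and 14.5% on chromosome 5, against 16.9% of all genes. Genes apart at all 13 times were found more often on chromosome 2, where 52 higher and 61 lower genes made up 4.42% of 2558 tested, against 1.45% of all genes. At 4-fold the share was 10.7% on chromosome 2 and 6.76% over all genes. In blocks of 100 tested genes in identifier order, a view added after the data were seen, the number at least 2-fold apart ran from 4 to 45 with a median of 16 over 207 blocks. The block from PRUPE_2G052500 to PRUPE_2G067900 held the most, with 24 genes higher in LP and 21 lower. Genes without a count at 4 d were on chromosome 2 in 8 of 18 cases for JB and 5 of 19 for LP, against 2558 of all 21168 tested genes. Neighbouring genes are not independent of each other, no test was made of these shares, and sequence differences between each genotype and the reference used for counting were not tested.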

How the data were processed

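Messenger RNA of floral buds was counted per gene in 84 libraries. The deposited table holds raw counts, whole numbers that the authors did not normalize. The submitters' processing notes name FastQC 0.11.9, Trimmomatic, STAR 2.6.0 and edgeR. Which counter, build and strand setting were used is not stated in the labels or the table. None of the table's identifiers matched the RefSeq gene table (26412 genes), so no names, sequences or gene lists beyond the DAM genes were used.

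Of 26879 genes, edgeR's filterByExpr kept 21168. The 5711 left out held 0.028% of all counts, and 947 of the 26879 had no read. After TMM scaling, edgeR 4.0.16 (glmQLFit, glmQLFTest; R 4.3.3, limma 3.58.1) fitted all libraries at once with a mean per group. It had 56 residual degrees of freedom and a common dispersion of 0.00587 (coefficient of variation 7.66%). In each comparison the p-values of the tested genes were adjusted by Benjamini-Hochberg, and a call needs an adjusted p under 0.05. Genes counted or listed as 2-fold higher, lower, apart or changed were also called. Log2 CPM use a prior count of 2. Changes of a genotype difference between times are interaction contrasts. The floor for a gene without a count is 3 counts summed over the 3 libraries of a group. Where a group held 3 counts or fewer, no fitted value is given. The scripts were tested on simulated data with known changes.

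Alternatives were DESeq2 1.42.0, its size factors within edgeR, other filters, the groups compared alone, a replicate block, and fits without single replicates or libraries. Named genes are the DAM genes, PRUPE_6G242400, and, among called genes with at least 5 CPM in the higher genotype and no overlap at 4 d, 2 higher and 2 lower per list. The lists were genes not 2-fold at every shared time, genes 2-fold the same way at all 13, genes without a count in 1 genotype (ranked by level), and the contrasts with 1000 h, 1 d and 8 d, the others ranked by log2 value. Genes printed in an earlier account were passed over, and a gene could lead several lists. The groups, lists and tests were chosen with earlier results of these data known.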

Additional observations from a re-analysis of the deposited data

Results flagged for a closer look

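Genotype differences at 4 d that differed from those at another time, by the interaction test in edgeR, were the results that stood out. The test of the difference itself found at least 2-fold changes against 1000 h in 4218 genes, against 1 d in 1578, against 8 d in 1730, against 12 d in 1210 and against 16 d in 6515. All 5 contrasts share the 4 d libraries.

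Against 1000 h the value on the log2 scale was -2.49 for PRUPE_DAM4, -2.14 for PRUPE_DAM5, -2.13 for PRUPE_DAM6, -1.46 for PRUPE_DAM1 and -0.66 for PRUPE_6G242400. It was 8.09 for PRUPE_8G215300 and 6.15 for PRUPE_8G153500. Against 1 d it was -1.16 for PRUPE_DAM4, 2.62 for PRUPE_DAM2, 6.73 for PRUPE_8G025400 and -4.18 for PRUPE_3G072000. PRUPE_DAM2 rests on 4 counts in LP and 32 in JB at 1 d, and on 16 in LP and 21 in JB at 4 d. Its call was lost in 10 of 15 alternative fits. Against 1000 h, 3 of 16 alternative fits lost the call of PRUPE_DAM1 and 1 lost that of PRUPE_DAM5. Against 8 d the value was -9.17 for PRUPE_4G261900.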

How the results depend on the processing

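At 4 d the number of genes at least 2-fold higher in LP ran from 1404 to 1692 and of those lower from 1649 to 2106 over all alternatives, and the lower genes were the more numerous in each. Which direction held more calls at any fold did turn, with 5914 higher and 5461 lower in LP without the libraries of JB 12 d and LP 28 d that stand apart. Another scaling moved the median of all genes by at most 0.033. Replicate numbers did not pair the libraries at 4 d (correlations of same-numbered deviations -0.029, -0.0047 and -0.0063), and a replicate block gave 5424 genes higher and 5521 lower in LP.

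Fits with 2 libraries a group made fewer calls. Leaving out replicates, the contrast with 1 d ran from 2675 to 4621 calls (1740 to 2774 more positive in LP, 935 to 2050 more negative). The contrast with 8 d ran from 2744 to 4733 (1369 to 2197 and 1375 to 2626). The contrast with 12 d ran from 1939 to 4802 (564 to 2133 and 1375 to 2809), and its genes at least 2-fold more positive ran from 205 to 445. A fit of the compared groups alone gave 230 of these, and the cause was not tested. Without a fold minimum, 296 genes were higher and 230 lower in LP at all 13 times. With 1 CPM in place of 5 CPM, 48 genes had no count in JB and 48 none in LP. By Euclidean distance the ratios were 1.14 for LP and 1.17 for JB.

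Signs turned only for values that were not called. PRUPE_6G242400 at 4 d was 0.0048 without the libraries of JB 12 d and LP 28 d that stand apart, and -0.076 to 0.032 over all alternatives. Leaving out replicates, PRUPE_DAM3 ran from -0.45 to 0.057 at 4 d and from -1.33 to 0.013 against 1000 h. Against 1 d, PRUPE_DAM1 ran from -0.33 to 0.24, PRUPE_DAM3 from -0.43 to 0.45 and PRUPE_DAM5 from -0.88 to 0.16. Libraries of 10366784 to 14496527 counts give few counts for DAM2, DAM3 and DAM5, which limits their precision.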
